A study of Bos taurus with 18 samples.

Results

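The genes described here encode the enzymes that build and break down glycogen in the liver and the proteins that set their activity. Each was taken as the probe set of the deposited table that carries its symbol as the only symbol, and all 9 genes of the list had exactly 1 such probe set, out of 18010 genes with a probe set of 1 symbol and 24333 probe sets in all. The data came from liver biopsies of 18 multiparous Holstein cows, taken 1 week after calving, with 1 Bovine Gene ST array (Affymetrix) per cow. The control group (n = 9) was fed total mixed rations based on corn and grass silage, before and after calving. The niacin group (n = 9) received those rations plus NiaShure, a rumen-protected form of niacin (nicotinic acid) made so that rumen microbes degrade less of it, beginning 3 weeks ahead of the expected calving date and going on until the biopsy. The dosage was 79 mg for each kg of body weight, of which the labels estimate that 47 mg reached the duodenum and 31 mg could be absorbed.

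Glycogen is the store from which the liver releases glucose between meals, and in dairy cows this store runs low in the first weeks of lactation, when the udder draws glucose for milk sugar. Glucose 6-phosphate is turned into glucose 1-phosphate by phosphoglucomutase and then into UDP-glucose, from which glycogen synthase lengthens the chains and the branching enzyme adds branches. Glycogen phosphorylase, switched on by phosphorylase kinase, removes glucose units again, and protein phosphatase 1 opposes it and activates the synthase when a targeting subunit brings it to the glycogen particle.

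All values are log2 expression per probe set after normalization by the submitters, and all 9 genes passed the filter on dim probe sets, a mean of 4.35 over the 18 arrays. Array medians lay between 5.57 and 5.72, and arrays correlated at 0.972 to 0.990. All 13 measured hepatocyte markers passed the filter, with means from 8.65 (APOA1) to 13.45 (ALB, albumin). The mean over these markers was 11.65 to 11.91 in control and 11.53 to 11.83 in niacin cows, a difference of -0.11 (exact two-sided permutation p = 0.0297, unadjusted). The mean over 40 measured leukocyte markers, 38 of them past the filter, was 6.18 to 6.48 in control and 6.34 to 6.69 in niacin cows, higher by 0.13 with niacin (exact p = 0.0229, unadjusted). By cell type the difference was 0.23 for neutrophil and 0.19 for macrophage markers (exact p = 0.0101 and 0.0983, unadjusted). It was 0.07 for T and NK cell and -0.02 for B and plasma cell markers (exact p = 0.23 and 0.795). Skeletal muscle, which has its own glycogen enzymes, was represented by 12 measured markers, of which 8 passed the filter, and their mean differed by 0.01 between the groups. In whole biopsies, fewer cells of a type and less RNA per cell cannot be told apart. A difference is called here when its limma p, adjusted by the Benjamini-Hochberg method over all 18250 tested probe sets, is under 0.05. The number of arrays limits the precision.

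No glycogen gene passed this rule for niacin minus control, with adjusted p from 0.588 to 0.997 over the 9. The log2 fold changes farthest from 0 were those of GYS2 (-0.33), UGP2 (-0.31) and PGM1 (-0.17), followed by GBE1 (-0.10). The genes of breakdown lay between -0.06 and 0.047, and the targeting subunits at 0.017 and 0.076 had by far the widest spread between cows. At an unadjusted limma p under 0.05, 2 of the 9 were lower with niacin (UGP2 and PGM1) and 0 higher, and the exact permutation test put 1 (PGM1) under 0.05. Over all tested probe sets, 0.0% were called, and 7.74% were under the unadjusted threshold, 4.41% lower and 3.34% higher. The median log2 fold change of the 9 genes was -0.06, with 6 below and 3 above 0, against a median of 0.011 over all tested probe sets.

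GYS2 (NCBI gene ID 537451) encodes glycogen synthase 2, the liver form of the enzyme that extends glycogen chains. Its values ran from 9.32 over a median of 9.74 to 10.70 in control cows, and from 8.74 over 9.42 to 10.30 in niacin cows. Of the niacin cows, 4 lay below the lowest control cow and 0 above the highest, while the ranges overlapped in the rest. The niacin level was 0.796 of the control level, with a 95% interval of the log2 fold change from -0.72 to 0.055 (exact permutation p = 0.133, limma adjusted p = 0.702). Niacin 15, at 10.30, was the highest of its group, and without it the log2 fold change was -0.43. Without control 23, at 10.70, it was -0.22. With the leukocyte marker mean as a covariate it was 0.014.

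UGP2 (gene ID 281565) encodes UDP-glucose pyrophosphorylase, which makes the glucose donor of glycogen synthesis. Values in control cows ran from 9.69 over a median of 9.96 to 10.41, and in niacin cows from 9.38 over 9.60 to 10.56. Below the lowest control cow lay 5 of the 9 niacin cows, and niacin 40 alone was above the highest. The mean was 9.70 ± 0.37 against 10.01 ± 0.29 (SD, n = 9 each), a fold of 0.806 with a 95% interval from -0.61 to -0.012 on the log2 scale (exact permutation p = 0.068, limma adjusted p = 0.632). Without niacin 40 the log2 fold change was -0.42. With the hepatocyte marker mean as a covariate it was -0.18.

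PGM1 (gene ID 534402) encodes phosphoglucomutase 1, which interconverts glucose 6-phosphate and glucose 1-phosphate and so serves both directions of the pathway. It was the most even gene of the 9 among control cows, from 10.02 over a median of 10.18 to 10.28. In niacin cows it ran from 9.62 (niacin 15) over 10.03 to 10.16, and all 9 niacin cows lay below the control median. Its mean was 10.00 ± 0.17 against 10.18 ± 0.09 (SD, n = 9 each), a fold of 0.888 with a 95% interval from -0.32 to -0.023 on the log2 scale (exact permutation p = 0.00765, unadjusted; limma adjusted p = 0.588). The log2 fold change was -0.12 without niacin 15. It was -0.10 with the hepatocyte and -0.20 with the leukocyte marker mean as a covariate.

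GBE1 (gene ID 615745), the branching enzyme, differed by -0.10 with a 95% interval of -0.31 to 0.11. This was -0.16 without niacin 3, -0.058 without niacin 8, and -0.024 with the leukocyte marker mean as a covariate. GBE1 ran from 8.46 over 8.80 to 9.11 in control and from 8.38 over 8.60 to 9.19 in niacin cows, so the niacin cows held both the lowest and the highest value of the 18.

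**Figure D1:**
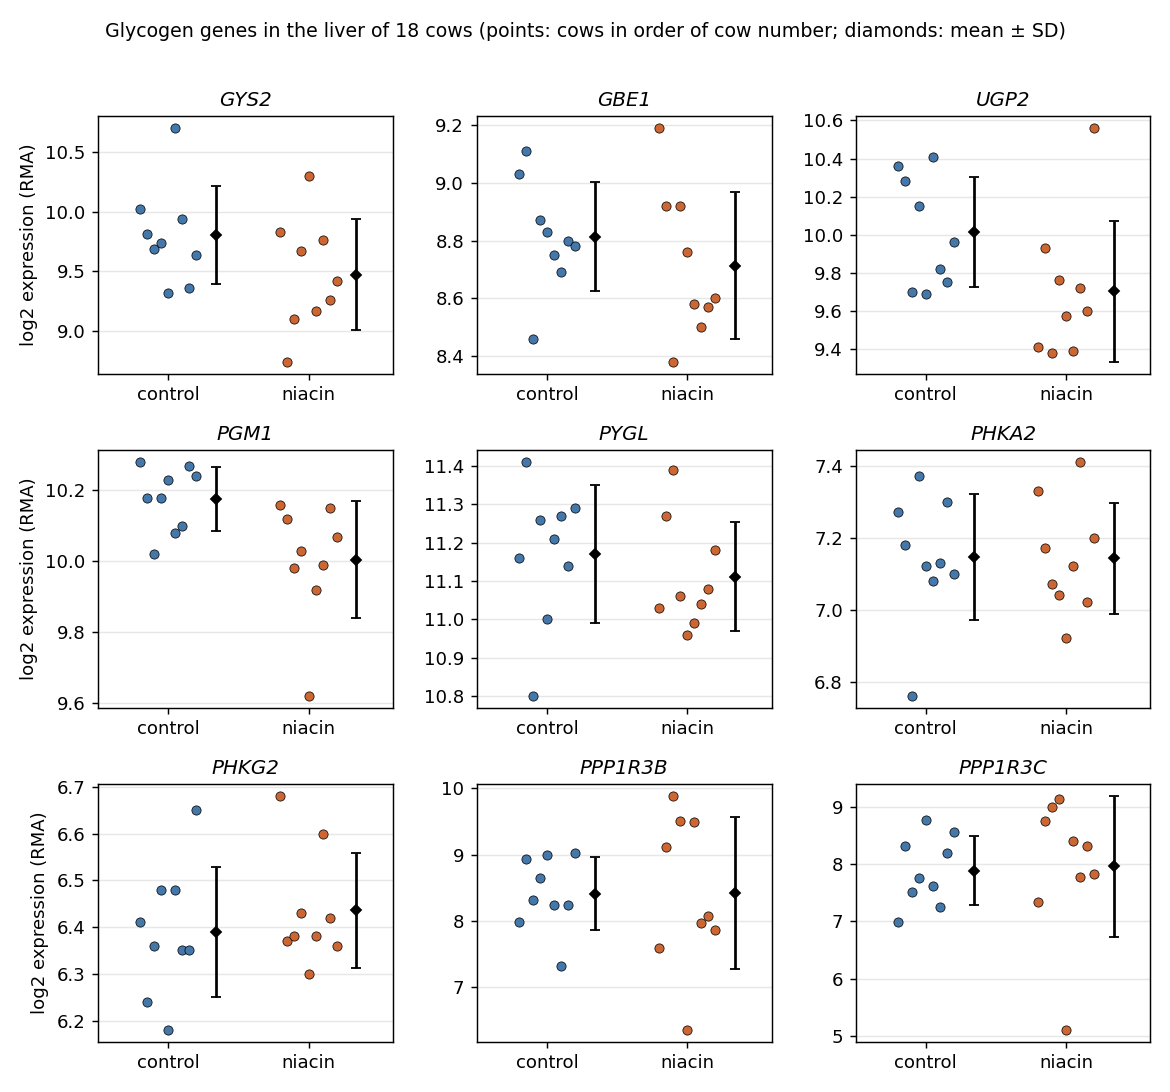
Log2 expression of the 9 glycogen genes in each cow (vertical axes, one scale per gene), 9 control cows in blue and 9 niacin cows in orange, ordered within a group by cow number, with diamonds and bars for the mean ± SD. All PGM1 points of the niacin group lie below the control median of 10.18, and the points of PPP1R3B and PPP1R3C spread over 3.52 and 4.02 log2 units.

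The breakdown side hardly differed between the groups. PYGL (gene ID 505472) encodes the liver form of glycogen phosphorylase. It ran from 10.80 over a median of 11.21 to 11.41 in control cows and from 10.96 over 11.06 to 11.39 in niacin cows, which lay wholly inside the control range. Its log2 fold change was -0.06 (95% interval -0.23 to 0.11), or -0.11 without control 12 and -0.03 without control 11. PHKA2 (gene ID 515732), the liver form of the regulatory alpha subunit of phosphorylase kinase, was at 7.14 ± 0.15 against 7.15 ± 0.18 (SD, n = 9 each), with an interval of -0.17 to 0.17. PHKG2 (gene ID 512670), the catalytic subunit found in liver, was at 6.44 ± 0.12 against 6.39 ± 0.14, with an interval of -0.10 to 0.19.

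In each cow, the GYS2 value minus the PYGL value sets the RNA level of the synthase against that of the phosphorylase on the log2 scale. As a difference between probe sets it can only be compared between cows. It ran from -1.78 over a median of -1.52 to -0.51 in control cows and from -2.53 over -1.76 to -0.66 in niacin cows. The means differed by -0.27, and the SD between cows was 0.40 in control and 0.57 in niacin cows. This difference between the means was not tested.

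The targeting subunits varied most. PPP1R3B (gene ID 514428) encodes the subunit known as GL, which brings protein phosphatase 1 to glycogen and is abundant in liver, and PPP1R3C (gene ID 539466) encodes protein targeting to glycogen (PTG), which does the same in many tissues. PPP1R3B ran from 7.33 over a median of 8.32 to 9.02 in control cows, and from 6.36 over 8.07 to 9.88 in niacin cows. Of the niacin cows, 4 were above every control cow and 1, niacin 15, was below every control cow. PPP1R3C ran from 6.99 over 7.75 to 8.76 in control cows and from 5.11 (niacin 15) over 8.32 to 9.13 in niacin cows. The highest cow was 11.5-fold above the lowest in PPP1R3B and 16.2-fold in PPP1R3C, against 1.41-fold in PHKG2 and 1.58-fold in PGM1.

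The SD between cows of the same group, pooled over both groups, was 0.90 for PPP1R3B and 0.96 for PPP1R3C. Of all tested probe sets, 0.318% and 0.236% had an SD at least as large, and the median was 0.20. GYS2 followed with an SD of 0.44 (4.33% of probe sets at least as large) and UGP2 with 0.33 (10.4%), while GBE1 was at 0.22, PHKA2 at 0.17, PYGL at 0.16, and PGM1 and PHKG2 at 0.13. For PPP1R3B the SD was 0.55 in control and 1.14 in niacin cows, or 0.90 without niacin 15. For PPP1R3C it was 0.60 in control and 1.22 in niacin cows, or 0.64 without niacin 15. Whether the groups differ in spread was not tested. The difference between the group means was far smaller than this spread. The 95% interval was -0.75 to 0.79 for PPP1R3B and -0.75 to 0.90 for PPP1R3C, and without niacin 15 the log2 fold changes were 0.28 and 0.43. With the leukocyte marker mean as a covariate they were -0.69 and -0.66.

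The levels of the targeting subunits varied together from cow to cow. After the group means were removed, the Pearson r of PPP1R3B and PPP1R3C over 18 cows was 0.90 (permutation p = 1e-05, the smallest that 100000 shuffles can give; adjusted p = 0.00036 over the 36 pairs of the 9 genes), and Spearman's rho was 0.88 (permutation p = 1e-05, adjusted p = 0.00036). Within the groups r was 0.82 in control cows (exact permutation p = 0.00629) and 0.91 in niacin cows (exact permutation p = 0.000165). Without the 2 cows farthest from the median of PPP1R3B, niacin 8 and niacin 15, it was 0.84.

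GYS2 ran against them. Its r with PPP1R3C was -0.69 (permutation p = 0.00155, adjusted p = 0.0279) with a rho of -0.67 (permutation p = 0.00354, adjusted p = 0.0637). Its r with PPP1R3B was -0.61 (permutation p = 0.00937, adjusted p = 0.112) with a rho of -0.61 (permutation p = 0.0145, adjusted p = 0.174). Cows with high PPP1R3C thus had low GYS2, as in niacin 7 and niacin 8 (niacin 14, with the highest PPP1R3C, did not), and niacin 15 had the lowest PPP1R3C and the highest GYS2 of its group. Within the groups the r of GYS2 and PPP1R3C was -0.57 in control cows (exact permutation p = 0.0973) and -0.78 in niacin cows (exact permutation p = 0.0119). It was -0.80 without control 23 and niacin 7, the cows farthest from the GYS2 median. It was -0.56 (adjusted p = 0.274) without niacin 15, and the call was also lost without control 20 or niacin 3, 8 or 19 (adjusted p from 0.0547 to 0.085). With the leukocyte marker mean removed it was -0.47 (adjusted p = 0.424). That mean itself had an r of 0.66 with PPP1R3B, 0.64 with PPP1R3C and -0.66 with GYS2 (permutation p = 0.00266, 0.00334 and 0.00388; rho 0.66, 0.64 and -0.65), with an adjusted p of 0.113 for each over 117 relations of the 9 genes with marker means and with the slope of each array over gene length. Without control 1 and niacin 8, the cows farthest from the median of the marker mean, r was 0.60, 0.56 and -0.68. For macrophage, T and NK cell, neutrophil, and B and plasma cell markers, r with GYS2 was -0.64, -0.52, -0.25 and 0.05. In the same order it was 0.41, 0.51, 0.64 and -0.15 with PPP1R3B, and 0.56, 0.32, 0.54 and -0.19 with PPP1R3C. None of these passed the adjusted threshold over the 117 relations.

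**Figure D2:**
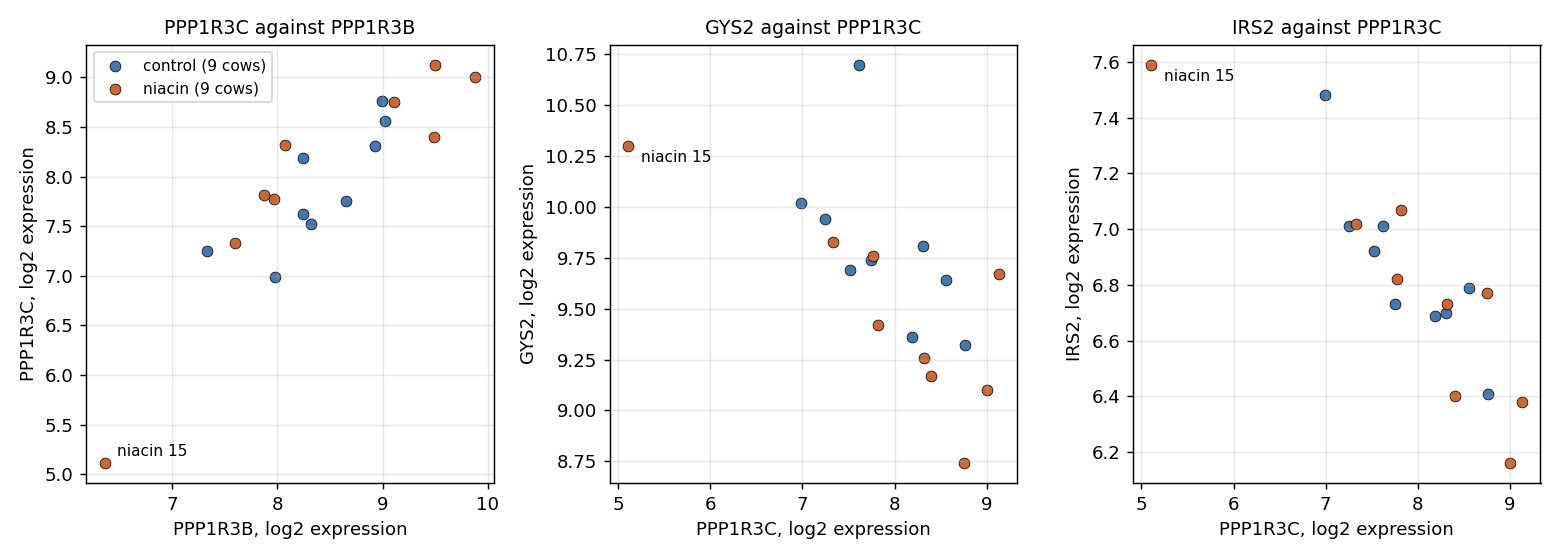
Log2 expression in 18 cows, PPP1R3C against PPP1R3B (left), GYS2 against PPP1R3C (middle) and IRS2 against PPP1R3C (right), control cows in blue and niacin cows in orange. Cows of both groups lie along one rising band on the left and falling bands in the middle and on the right, with niacin 15 at the low PPP1R3C end of each.

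Of the 36 pairs, these 2 passed the adjusted threshold. Over all pairs of tested probe sets, 1.05% had an r of at least 0.694 in size, that of the weaker called pair. PGM1 and PPP1R3C had an r of 0.61 (permutation p = 0.0486, adjusted p = 0.292; rho 0.20, permutation p = 0.434) that was 0.05 without niacin 15 and niacin 19, so this relation rested on those cows. PGM1 and PHKA2 had an r of 0.55 (permutation p = 0.0169, adjusted p = 0.152; rho 0.42, permutation p = 0.0999), or 0.46 without the same cows. GYS2 had an r of 0.23 with UGP2, 0.16 with GBE1 and -0.18 with PYGL. The 15 pairs among GBE1, UGP2, PGM1, PYGL, PHKA2 and PHKG2 had r from 0.00 to 0.55, and none passed the adjusted threshold. Among them were GBE1 with PHKA2 at 0.40, and UGP2 with PYGL and PHKA2 with PHKG2 at 0.38 each. PHKA2 and PHKG2 had an r of 0.80 in niacin cows (exact permutation p = 0.0125) and 0.06 in control cows, and GBE1 and PYGL had 0.68 in control cows (exact permutation p = 0.0489) and -0.31 in niacin cows. In control cows alone GYS2 and UGP2 had an r of 0.75 (exact permutation p = 0.00783) and in niacin cows -0.12 (exact permutation p = 0.738), and none of these differences between groups was tested. Adjusted over the 36 pairs, PPP1R3B and PPP1R3C passed in niacin cows alone (adjusted p = 0.00595), and no pair did in control cows alone, where the smallest adjusted p was 0.141. Pairs with an unadjusted p under 0.05 numbered 6 in control cows, 5 in niacin cows and 6 over the 18 cows. The share of all probe set pairs under that threshold was not determined, so these counts cannot be set against it.

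**Figure D3:**
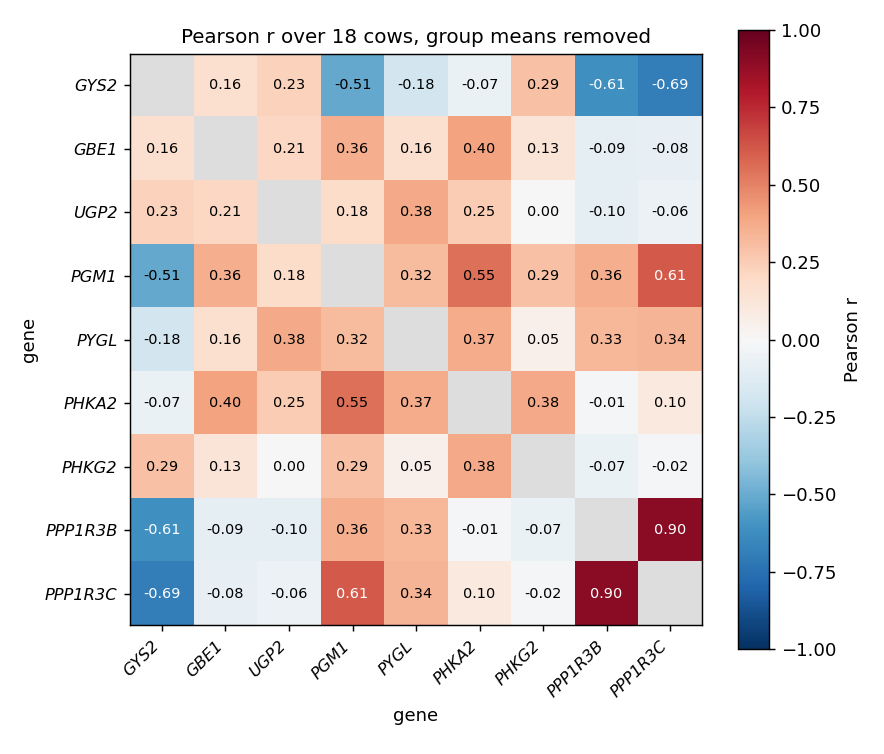
Pearson r between the 9 glycogen genes over 18 cows after removal of the group means (colour and printed value, from blue for -1 to red for 1). PPP1R3B and PPP1R3C stand out at 0.90, and GYS2 is at -0.61 and -0.69 with them.

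Among 41 other tested genes of the pathway and of its hormonal signals, 1 passed against any of the 9, in 369 relations looked at after the values were seen. IRS2, insulin receptor substrate 2, which passes the insulin signal on in hepatocytes, ran against both targeting subunits. Its values ran from 6.41 over a median of 6.79 to 7.48 in control cows and from 6.16 over 6.77 to 7.59 in niacin cows. With PPP1R3C its r was -0.89 (permutation p = 2e-05, adjusted p = 0.00738), with a rho of -0.88 (permutation p = 3e-05, adjusted p = 0.0111) and an r of -0.87 in control and -0.90 in niacin cows. With PPP1R3B its r was -0.87 (permutation p = 6e-05, adjusted p = 0.0111), with a rho of -0.83 (permutation p = 9e-05, adjusted p = 0.0166) and an r of -0.64 in control and -0.96 in niacin cows. Niacin 15 had the highest IRS2 of all 18 cows and niacin 8 the lowest. Without the 2 cows farthest from the median of the targeting subunit, r was -0.84 for PPP1R3C and -0.74 for PPP1R3B, and without niacin 15 alone -0.85 and -0.79. With the leukocyte marker mean removed, PPP1R3C kept its call at -0.80, and PPP1R3B, at -0.75, did not (adjusted p = 0.193). In niacin cows alone PPP1R3B passed over the 369 relations (adjusted p = 0.0254) and PPP1R3C did not (adjusted p = 0.0571), and in control cows alone neither did (adjusted p = 0.631 and 0.175). IRS2 itself differed between the groups by -0.089 (95% interval -0.42 to 0.24).

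For each glycogen gene, the 3 genes whose group-centred values were most like it over the 18 cows are given by r as a description. For PPP1R3B these were PIK3R1, the regulatory subunit of phosphoinositide 3-kinase (0.92), PPP1R3C (0.90) and MID1IP1, an activator of acetyl-CoA carboxylase (0.89). For PPP1R3C they were PPP1R3B (0.90), MID1IP1 (0.89) and HDHD3 (0.85). No other pair of the 9 genes appears among these nearest genes. For GYS2 they were IVNS1ABP (0.90), ECD (0.85) and MFSD8, a lysosomal membrane protein (0.83). PGM1 was most like AGMAT, agmatinase (0.90), AHSG, fetuin (0.88), and HSD17B2, a steroid dehydrogenase (0.87). AHSG is among the hepatocyte markers. With the hepatocyte marker mean PGM1 had an r of 0.46 (permutation p = 0.0797, adjusted p = 0.466 over 117 relations). Within the groups that r was 0.88 in control and 0.29 in niacin cows. With the red cell marker mean PGM1 had an r of -0.24 (adjusted p = 0.689), while rho passed at -0.78 (permutation p = 0.00011, adjusted p = 0.0129). This r was -0.77 in control and -0.14 in niacin cows, and -0.62 without control 23 and niacin 8. With the B and plasma cell marker mean r was -0.54 (permutation p = 0.00194, adjusted p = 0.113). The nearest genes of GBE1 were ASCC3 (0.84), MPV17L (0.83) and the mitochondrial protein gene MTCH2 (0.83), and those of UGP2 were CCNDBP1 (0.76), NUDT13 (0.76) and VPS41 (0.74). For PYGL they were LOC786706 (0.77), the ATPase gene VCP (0.77) and FTCDNL1 (0.76). For PHKA2 they were the checkpoint kinase gene CHEK1 (0.83), RNF128 (0.79) and BIRC5 (0.78), and for PHKG2 HECA (0.76), PLEKHG1 (0.74) and CLK3 (0.74). Each r is among the 3 highest of 14486 genes searched, so it is raised by the search. An r of at least 0.694 in size was reached by 156 of these genes for GBE1 (1.08%), 152 for PGM1 (1.05%), 147 for PPP1R3C (1.01%), 112 for PPP1R3B (0.773%) and 82 for GYS2 (0.566%). The other 4 lay between 16 for PHKG2 (0.11%) and 48 for PHKA2 (0.331%). Over all pairs of tested probe sets the share was 1.05%, so no glycogen gene stood well above it.

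The rest of the pathway also held no gene past the adjusted threshold. Among 9 tested other glycogen enzymes, an unadjusted p under 0.05 was reached by 1 with a higher and 0 with a lower mean, with a median log2 fold change of -0.02. Over all tested probe sets, 3.34% were higher and 4.41% lower at that threshold. GYG1, glycogenin, on which a new glycogen particle is started, was at 6.30 ± 0.46 against 5.94 ± 0.24 (SD, n = 9 each), a fold of 1.28 (exact permutation p = 0.0489, limma adjusted p = 0.603). It was above the highest control cow in 6 niacin cows, and its log2 fold change of 0.36 was 0.24 without niacin 8 and 0.23 with the leukocyte marker mean as a covariate. Of 10 tested other regulators, 6 had a log2 fold change above 0 and 4 below, with a median of 0.027. At an unadjusted p under 0.05, 2 were higher and 0 lower. GSK3A, a kinase that inactivates glycogen synthase, had a log2 fold change of 0.22 (95% interval 0.031 to 0.41). This log2 fold change was 0.26 with the hepatocyte and 0.18 with the leukocyte marker mean as a covariate. PPP1CA, a catalytic subunit of protein phosphatase 1, had 0.21 (0.019 to 0.40) in its brighter probe set and -0.04 in its other one, so the 2 probe sets disagreed. With the leukocyte marker mean as a covariate the brighter one was at 0.07, and with the hepatocyte marker mean at 0.22. PHKB, another phosphorylase kinase subunit, was at -0.10.

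Of 8 tested genes that handle glucose and glucose 6-phosphate, 4 had a log2 fold change above 0 and 4 below, with a median of -0.0022. At an unadjusted p under 0.05, 1 was higher and 1 lower. SLC2A2, the glucose transporter GLUT2 of the hepatocyte membrane, was below the lowest control cow in 7 of 9 niacin cows and above the highest in 1. Its log2 fold change was -0.33 (95% interval -0.59 to -0.067; exact permutation p = 0.0241, limma adjusted p = 0.546). It was -0.23 with the hepatocyte and -0.34 with the leukocyte marker mean as a covariate. GPI, which interconverts glucose 6-phosphate and fructose 6-phosphate, was at 0.28 (0.043 to 0.51). With the hepatocyte marker mean as a covariate GPI was at 0.37, and with the leukocyte marker mean at 0.25. G6PC1, the glucose 6-phosphatase that frees glucose, was at -0.12 (-0.40 to 0.17). Of 14 tested genes of insulin, glucagon and adrenergic signals, 4 had a log2 fold change above 0 and 10 below, with a median of -0.064. At an unadjusted p under 0.05, 1 was higher and 0 lower. This was AKT1, a kinase of the insulin signal, at 0.18 (0.015 to 0.35), or 0.055 with the leukocyte marker mean as a covariate. INSR, the insulin receptor, was at -0.059 and GCGR, the glucagon receptor, at 0.074, each with an interval that included 0.

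**Figure D4:**
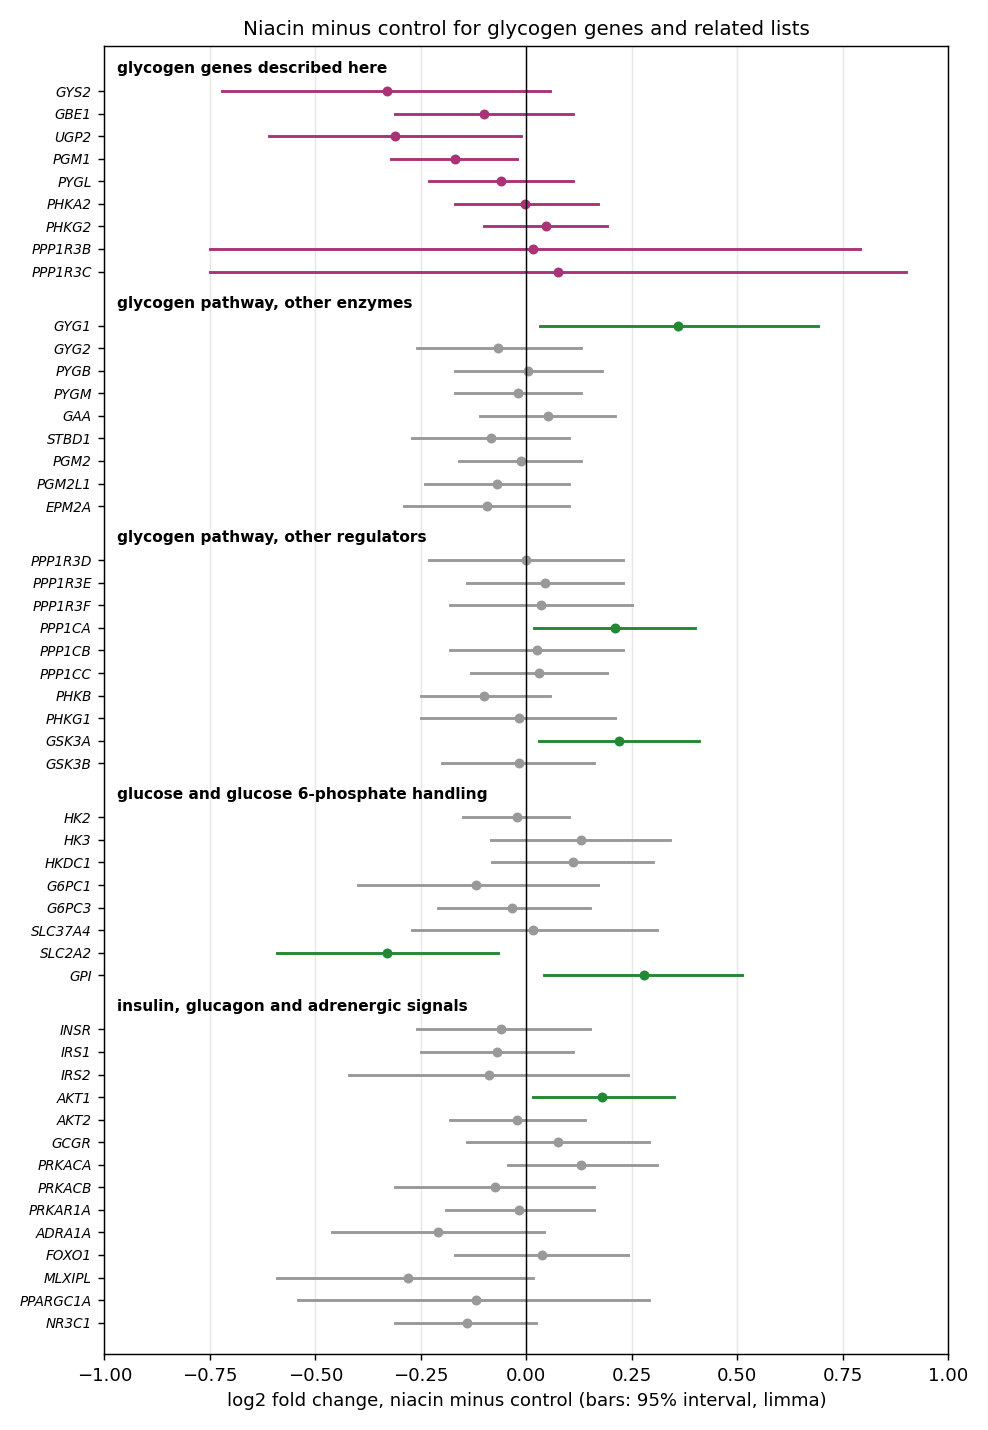
Log2 fold change, niacin minus control (horizontal axis), with 95% intervals from limma, for the 9 glycogen genes (purple) and the other tested genes of the pathway lists (grey, with those at an unadjusted p under 0.05 in green). The intervals of PPP1R3B and PPP1R3C are the widest, and those of UGP2 and PGM1 lie below 0 by a small margin.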

How the data were processed

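The deposited log2 values, 1 for each probe set and array, were used unchanged. The submitters' processing notes name Affymetrix Expression Console and RMA; their versions are not given in the sources used here. RMA includes quantile normalization, which forces one distribution of probe values on all arrays before they are combined into probe sets. It thus hides changes that most genes share. The log2 scale was read from the values (0.85 to 14.04). Per the labels' protocols, each group had 11 cows, and before hybridisation the submitters dropped the 2 with the lowest RNA integrity. The labels give that number as 7.2 ± 0.5 (mean ± SD, 18 samples), without single values, and name no batch. Groups came from the sample titles, and no 2 arrays held identical values.

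The platform annotation gave 18457 probe sets 1 symbol, 688 several and 5188 none; 17996 of the first matched a RefSeq gene table (ARS-UCD2.0) by gene ID, with 0 changed symbols. Genes with more than 1 probe set were represented by the brightest. Some genes of the pathway lists were not analysed here and are not reported; NHLRC1 and PPP1R3A were below the filter.

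With R 4.3.3 and limma 3.58.1, the 6083 probe sets (share 0.25) of lowest mean were left out and 18250 fitted (lmFit, eBayes, niacin minus control, no covariate), two-sided, with Benjamini-Hochberg adjustment over all of them. Exact permutation p-values used all 48620 splits into 9 and 9. Correlations used deviations from the group mean, with 100000 shuffles within groups, or all 362880 orders within 1 group of 9 (Python 3.11.15). All were two-sided. Alternatives were other filters, an intensity trend with robust variances, no moderation, array weights, a second quantile normalization, median centring, removal of the gene length trend, a leukocyte, hepatocyte or muscle marker mean as a covariate, and each array left out in turn. The relations with IRS2 and their alternatives were chosen after seeing the data. Scripts were tested on simulated data. The genes, lists and rule for named genes (all 9 glycogen genes, in each other list the genes with an unadjusted p under 0.05, at most 4, and the 3 nearest genes of each glycogen gene) were chosen with earlier results of these data known. IRS2, PPARGC1A, STBD1, INSR, GCGR, G6PC1 and PHKB were named outside this rule, after their values were seen. Marker means average the log2 values of a marker list in each cow.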

Additional observations from a re-analysis of the deposited data

Results flagged for a closer look

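In 30 groups of 9 values (9 glycogen genes and 6 named pathway genes in control and in niacin cows), an extreme value lay far from its neighbour in 4, meaning that the gap made up over 0.493 of all the distance between highest and lowest. About 1 group in 20 does so by chance, which for 30 groups is 1.5, and groups that share cows are not independent. Niacin 15 was the lowest of its group in PPP1R3C at 5.11, with the nearest cow at 7.33, and in PGM1 at 9.62, with the nearest at 9.92. UGP2 in niacin 40 was the highest of its group at 10.56, with the nearest at 9.93. PHKA2 in control 12 was the lowest at 6.76, with the nearest at 7.08.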

How the results depend on the processing

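The number of glycogen genes past the adjusted threshold was 0 under all 11 other settings of the fit and on leaving out any 1 array, where the count over all probe sets was 0 to 1 (1 without niacin 39). No paired analysis was possible because control and niacin cows shared no number. The count at an unadjusted p under 0.05 was 1 with no moderation, array weights, or the leukocyte or muscle marker mean as a covariate, 0 with the hepatocyte marker mean, and 1 to 2 without 1 array. The median log2 fold change of the 9 genes lay between -0.12 and -0.03 throughout. Signs turned for 6 named genes. PHKA2 was at 0.011 with array weights, 0.0052 after a second quantile normalization, 0.015 with the gene length trend removed, 0.10 with the hepatocyte and 0.0017 with the muscle marker mean, and at -0.052 to 0.025 without 1 array. PPP1R3B was at -0.058 with array weights, -0.0022 with the length trend removed, -0.69 with the leukocyte and -0.31 with the hepatocyte marker mean, and at -0.16 to 0.28 without 1 array. PPP1R3C was at -0.66 and -0.033 with these means and at -0.071 to 0.43 without 1 array. GYS2 was at 0.014 with the leukocyte and GBE1 at 0.016 with the hepatocyte marker mean, and PPP1CA at -0.04 in its other probe set. The cause of these turns was not tested. Of the 36 pairs, 2 passed; the count was 1 by Spearman's rho, with the group means kept, in niacin cows alone or with the leukocyte mean removed, 3 after a second quantile normalization, median centring or removal of the hepatocyte mean, 0 in control cows alone, and 1 to 3 without 1 array. PPP1R3B and PPP1R3C passed in all of these except control cows alone (r = 0.82, adjusted p = 0.141), and their r without 1 array was 0.85 to 0.92. The relations with IRS2 passed on leaving out any 1 array, but each lost its call in 2 of 9 other settings, PPP1R3C in control and in niacin cows alone, and PPP1R3B in control cows alone and with the leukocyte mean removed.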

Other observations

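PPARGC1A, a coactivator of gluconeogenic genes, also ran against PPP1R3C, with an r of -0.84 over 18 cows (permutation p = 0.00066, adjusted p = 0.0812 over 369 relations), but r was -0.62 without niacin 15 and -0.43 in control cows. STBD1, which binds glycogen for its transfer to lysosomes, had an r of -0.89 with GYS2 and 0.81 with PPP1R3B in niacin cows, against -0.01 and 0.08 in control cows. Over the 18 cows these were -0.63 and 0.69 (adjusted p = 0.29 for each), and the difference between the groups was not tested. Without niacin 15 the r of STBD1 was -0.48 with GYS2 and 0.53 with PPP1R3B. With PPP1R3B it was 0.37 without niacin 8 and niacin 15. GYG1 and PYGL had an r of 0.63 (permutation p = 0.00317, adjusted p = 0.195). GBE1 and GPI had an r of 0.68 (permutation p = 0.00238, adjusted p = 0.195) with a rho of 0.74 (adjusted p = 0.0824). Other relations of like size, none of them called, are not listed here.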
